A study of Mus musculus with 21 samples.

Results

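Fos, Fosb, Jun, Junb, Jund, Egr1, Ier2, Dusp1, Nr4a1 and Myc are immediate early genes, and they were chosen by name from the gene table of a study of mouse heart. All 10 were found among 14732 genes in the table, and all 10 passed the filter on low counts that left 12333 genes for testing. Immediate early genes are transcribed within minutes of a stimulus by factors already present in the cell, and most of their mRNAs are short-lived. In heart muscle they are known for a transient response to stretch, hormone or catecholamine stimulation and injury. Several of them encode transcription factors that act on later genes, and others shut the signal off again.

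The study compared ventricles of 2-month-old TAZ KO/Y mice with those of their WT/Y littermates on the backgrounds BL6J (C57/J in the design text), AJ-F1 and CAST-F1. Taz encodes tafazzin, the mitochondrial transacylase that remodels cardiolipin, and its loss causes Barth syndrome in humans. RNA-seq on poly(A) RNA, with a stranded library, gave 4 KO and 4 WT libraries in BL6J, 3 KO and 4 WT in AJ-F1, and 3 KO and 3 WT in CAST-F1. The labels name no promoter, Cre driver or deleted exon for the KO allele and do not spell out the parents of the F1 hybrids. Nothing in them states that libraries came from different animals, and p-values therefore rest on the spread between libraries, which may be technical. In ventricle RNA, fewer cells of a type and less RNA per cell cannot be told apart.

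The 21 libraries held 3848172 to 10738130 counted reads. Taz stood at 1.07 to 6.07 CPM (counts per 1000000 counted reads of the library, scaled by TMM) in KO libraries and at 36.5 to 61.0 CPM in WT libraries, so no library went against its genotype label. None of the 10 cardiomyocyte markers was at 0 in any library. The libraries WT 1 of AJ-F1 and WT 3 of CAST-F1 stood apart from the rest of their groups for most of the immediate early genes. Some results are also given without them, and all other values include them.

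Apart from Myc, the immediate early genes were lower in KO ventricles, and Myc was far higher. The KO mean lay below the WT mean for the same 9 of 10 genes in each of BL6J, AJ-F1 and CAST-F1. Myc rose 9.17-fold in BL6J, 14.8-fold in AJ-F1 and 17.8-fold in CAST-F1. Over the average of the 3 backgrounds all 10 genes changed, 9 falling and 1 rising, where 47.9% of all tested genes changed (edgeR quasi-likelihood test, two-sided, Benjamini-Hochberg adjusted p under 0.05 over 12333 genes; every call below uses this test and threshold unless another is named). Of the same genes 24.2% fell and 23.7% rose.

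Within a single background fewer of them passed. In BL6J 3 members fell (Fos, Jun and Dusp1) and Myc rose, where 9.51% of all tested genes fell and 12.8% rose. In AJ-F1 6 fell (Fos, Jun, Junb, Jund, Ier2 and Dusp1) and Myc rose, against backgrounds of 15.7% and 12.9%. In CAST-F1 6 fell (Fos, Jun, Junb, Ier2, Dusp1 and Nr4a1) and Myc rose, against 9.59% and 10.7%. The median log2 change of the 10 members, KO over WT, was -0.99 in BL6J, -1.27 in AJ-F1 and -2.12 in CAST-F1, beside medians of 0.0071, 0.011 and -0.016 over all tested genes.

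**Figure D1:**
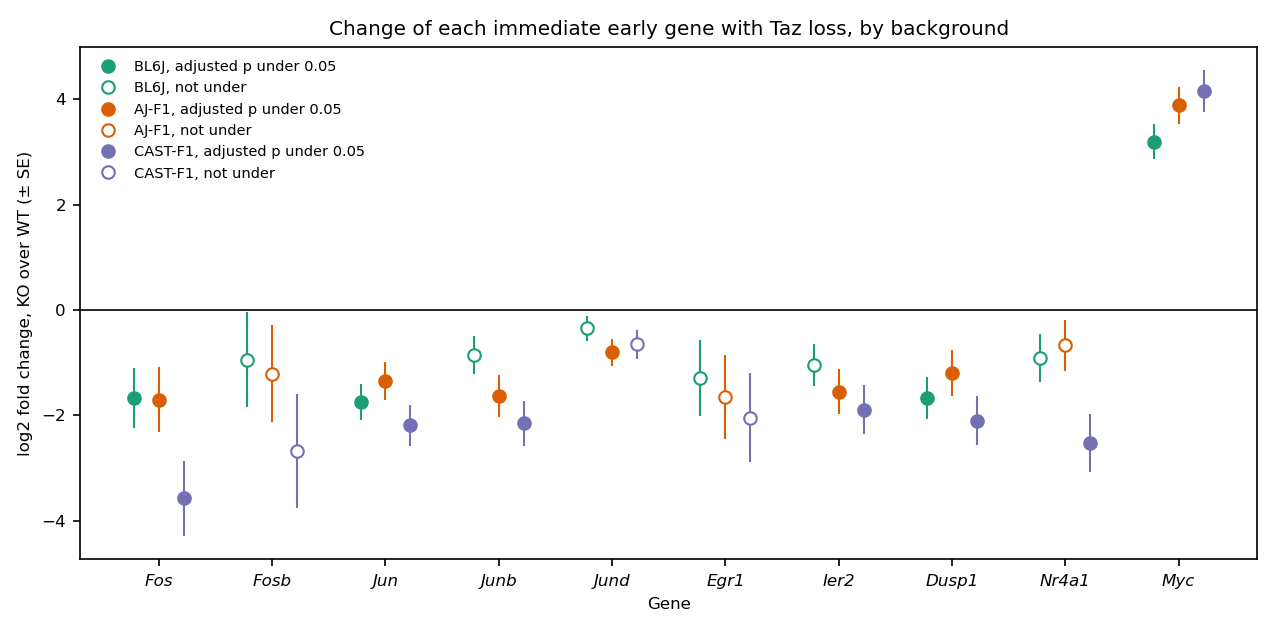
Log2 fold change (KO over WT, ± SE) of each of the 10 immediate early genes in BL6J, AJ-F1 and CAST-F1; filled points have an adjusted p under 0.05 in edgeR's quasi-likelihood test. Myc lies between 3.20 and 4.15 in the 3 backgrounds and the other 9 genes lie below 0.

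Positions are given on GRCm38 (GENCODE M21 annotation). The AP-1 subunits are Fos (ENSMUSG00000021250.13, chr12:85473890-85477273, plus strand), Fosb (ENSMUSG00000003545.3, chr7:19302696-19310051, minus), Jun (ENSMUSG00000052684.4, chr4:95049034-95052222, minus), Junb (ENSMUSG00000052837.6, chr8:84974484-84978718, minus) and Jund (ENSMUSG00000071076.6, chr8:70698949-70700616, plus). The other regulators described here are Nr4a1 (ENSMUSG00000023034.7, chr15:101254269-101274795, plus), Ier2 (ENSMUSG00000053560.4, chr8:84661331-84662852, minus) and Myc (ENSMUSG00000022346.15, chr15:61985391-61990374, plus). Dusp1 (ENSMUSG00000024190.7, chr17:26505590-26562128, minus) encodes a phosphatase. Jun overlaps Junos, Junb overlaps Prdx2 and Jund overlaps Gm11175, in each case on the opposite strand. Dusp1 overlaps Gm8225 and Ergic1 on the opposite strand and AC122252.4 and AC122252.1 on its own strand. Whether the counting used strand is not given in the sources used here, so reads of these overlapping genes may not be told apart.

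Promoters of 7 of the 10 genes were matched in the RefSeq promoter table (GRCm38.p6, 250 bases before to 50 after the start), leaving Egr1, Ier2 and Myc. The promoters of Fos and Jun (AP-1), Dusp1 (the phosphatase) and Nr4a1 (a nuclear receptor) are shown because these genes fell in CAST-F1 hearts and stand for different roles. Capitals mark the motif TGACG on either strand, the half-site of the cyclic AMP response element (CRE), and in Dusp1 also the full palindrome TGACGTCA that includes it.
Fos, chr12:85473640-85473939, plus strand: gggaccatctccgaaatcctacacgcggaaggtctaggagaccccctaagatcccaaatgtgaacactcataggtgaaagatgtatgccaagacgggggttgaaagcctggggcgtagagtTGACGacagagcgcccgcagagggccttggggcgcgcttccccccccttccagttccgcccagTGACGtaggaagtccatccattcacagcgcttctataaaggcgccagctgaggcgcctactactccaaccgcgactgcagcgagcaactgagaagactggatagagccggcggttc
Jun, chr4:95052173-95052472, minus strand: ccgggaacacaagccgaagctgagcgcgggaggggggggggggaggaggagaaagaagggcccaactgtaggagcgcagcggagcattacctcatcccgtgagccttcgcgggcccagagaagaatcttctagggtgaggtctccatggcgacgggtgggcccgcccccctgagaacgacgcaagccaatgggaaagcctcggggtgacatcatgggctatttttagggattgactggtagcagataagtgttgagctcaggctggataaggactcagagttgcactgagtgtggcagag
Dusp1, chr17:26508423-26508722, minus strand: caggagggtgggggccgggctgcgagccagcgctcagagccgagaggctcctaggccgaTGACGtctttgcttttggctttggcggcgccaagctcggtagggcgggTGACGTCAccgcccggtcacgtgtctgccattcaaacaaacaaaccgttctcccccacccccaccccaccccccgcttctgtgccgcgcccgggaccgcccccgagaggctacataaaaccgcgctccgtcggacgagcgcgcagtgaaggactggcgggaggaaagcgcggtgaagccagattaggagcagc
Nr4a1, chr15:101266596-101266895, plus strand: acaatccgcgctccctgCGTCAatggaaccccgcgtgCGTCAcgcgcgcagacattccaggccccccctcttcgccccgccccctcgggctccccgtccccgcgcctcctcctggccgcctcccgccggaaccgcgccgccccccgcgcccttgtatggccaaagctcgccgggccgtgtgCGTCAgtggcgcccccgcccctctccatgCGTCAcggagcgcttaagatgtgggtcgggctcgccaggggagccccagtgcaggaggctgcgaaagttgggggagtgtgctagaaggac
The half-site occurred in 5 of the 7 promoters (Fos, Fosb, Junb, Dusp1 and Nr4a1), while 20.8% of 32851 promoters of this length in the table hold it. Nr4a1 held 4 copies, starting at -233, -213, -69 and -40 from its start, and Fos held 2, at -129 and -66. The full palindrome was found in Dusp1 at -143 and in 1.79% of all promoters. The other motifs were also searched on both strands. The EGR motif GCGGGGGCG (2.91% of promoters) was in Fosb at -50 and Nr4a1 at -60, and the E-box CACGTG (7.15%) was in Dusp1 at -126. The AP-1 motif TGANTCA (7.81%) and the CArG box (1.63%) were in none of the 7 windows. The TATA box letters TATAAA (13.6%) were in Fos at -33 and, in Junb, at +1. Jun held none of the motifs searched in this window. A match is a run of letters and not a shown binding site.

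Fos, which forms AP-1 dimers with Jun proteins, was the AP-1 subunit with the largest fall in CAST-F1. In BL6J it stood at 35.1, 44.2, 16.1 and 52.3 CPM in KO libraries, against 57.3, 149.6, 56.4 and 207 CPM in WT libraries. AJ-F1 hearts had 77.7, 34.3 and 107 CPM in KO and 561, 206, 91.2 and 94.2 CPM in WT. CAST-F1 hearts had 20.3, 20.6 and 25.9 CPM in KO and 185, 234 and 374 CPM in WT. All KO libraries lay below all WT libraries in BL6J and CAST-F1, and in AJ-F1 1 KO library lay above the lowest WT libraries. The log2 change of Fos was -1.67 ± 0.57 for BL6J (SE, adjusted p = 0.041), -1.70 ± 0.62 for AJ-F1 (adjusted p = 0.046) and -3.57 ± 0.71 for CAST-F1 (adjusted p = 0.0013). The AJ-F1 call was lost without any 1 of KO 1, KO 2, KO 3, WT 1 and WT 2 of that background. Libraries of the other backgrounds included, it was lost in 13 of the 21 fits that left out 1 library. Without WT 1 of AJ-F1 the change was -0.83 (adjusted p = 0.21). In BL6J the call was lost without any 1 of KO 1, KO 2, KO 3, WT 2 and WT 4. Without WT 4 the change was -1.25 (adjusted p = 0.15). The BL6J call was also lost without WT 2 of AJ-F1 (adjusted p = 0.066). In CAST-F1 it was kept in all 29 alternative settings.

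Fosb, a second Fos-family subunit whose transcript is usually scarce in resting tissue, had few reads and wide spread. Its KO libraries had 9.01, 14.4, 6.35 and 17.3 CPM in BL6J, against 4.61, 38.0, 3.87 and 43.7 CPM in WT. In AJ-F1 the levels were 17.6, 17.7 and 45.3 CPM in KO and 177, 26.8, 23.3 and 23.2 CPM in WT. In CAST-F1 they were 9.20, 6.92 and 8.87 CPM in KO and 18.9, 18.1 and 124 CPM in WT. The groups overlapped in BL6J and AJ-F1 but not in CAST-F1, where WT 3 was several times the other WT libraries. Fosb passed in no single background, with log2 changes of -0.94 ± 0.90 (adjusted p = 0.51), -1.20 ± 0.91 (0.34) and -2.68 ± 1.08 (0.094) in BL6J, AJ-F1 and CAST-F1. Leaving out WT 1 of AJ-F1 turned its AJ-F1 value to 0.15 (adjusted p = 0.90) and brought the CAST-F1 call past the threshold (adjusted p = 0.037), as did DESeq2 (adjusted p = 0.031); without WT 3 of CAST-F1 the CAST-F1 value was -1.15 (adjusted p = 0.55). Its fall over the average of the backgrounds, -1.61 ± 0.56 (adjusted p = 0.025), became -1.10 (adjusted p = 0.093) without WT 3 of CAST-F1.

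Jun, the main Jun-family partner of Fos, fell in all 3 backgrounds with no overlap between genotypes in any of them. BL6J KO libraries had 144, 172, 62.9 and 149 CPM and BL6J WT libraries had 349, 545, 306 and 568 CPM. For AJ-F1 the values were 144, 232 and 341 CPM in KO, against 970.0, 403, 519 and 542 CPM in WT. For CAST-F1 they were 95.6, 197 and 118 CPM in KO, against 482, 566 and 823 CPM in WT. The highest KO value of Jun in AJ-F1 was still below the lowest WT value. The log2 changes were -1.75 ± 0.34 (adjusted p = 0.00053), -1.35 ± 0.36 (adjusted p = 0.0086) and -2.18 ± 0.39 (adjusted p = 0.00035) in BL6J, AJ-F1 and CAST-F1. Without KO 1 of AJ-F1 the change there was -1.11 and no longer passed (adjusted p = 0.055). Without WT 1 of AJ-F1 it was -1.03 (adjusted p = 0.033).

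Junb, a Jun-family subunit that is a weaker activator than Jun, fell in the F1 backgrounds. Its levels in BL6J were 89.6, 95.9, 57.9 and 115 CPM in KO and 93.6, 224, 76.2 and 254 CPM in WT, so the genotypes overlapped. In AJ-F1 they were 103, 88.5 and 140.3 CPM in KO and 577, 234, 343 and 212 CPM in WT. In CAST-F1 they were 70.2, 56.0 and 76.3 CPM in KO and 227, 219.85 and 450.3 CPM in WT. All KO libraries lay below all WT libraries in both F1 backgrounds, with log2 changes of -1.62 ± 0.40 for AJ-F1 (adjusted p = 0.0047) and -2.15 ± 0.43 for CAST-F1 (adjusted p = 0.00096). Without WT 1 of AJ-F1 the AJ-F1 change was -1.25 (adjusted p = 0.018). Without WT 3 of CAST-F1 the CAST-F1 change was -1.73 (adjusted p = 0.0088). The BL6J change of Junb was -0.86 ± 0.36 (adjusted p = 0.095). It passed without WT 1 (-1.05, adjusted p = 0.0497) or without WT 3 (-1.09, adjusted p = 0.035), the libraries with the lowest WT levels. Without WT 2 it was -0.66 (adjusted p = 0.26) and without WT 4, the library with the highest level, -0.55 (adjusted p = 0.34).

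Jund, the Jun-family subunit that is expressed constitutively in many tissues, had the smallest change of the 10 genes over the average of the backgrounds, -0.60 ± 0.15 on the log2 scale (adjusted p = 0.0021). BL6J hearts had 127, 113, 104 and 158 CPM in KO and 148, 165, 119 and 207 CPM in WT. AJ-F1 hearts had 125, 158 and 184 CPM in KO and 304, 147, 340.4 and 292 CPM in WT. CAST-F1 hearts had 133, 121 and 116 CPM in KO and 131, 179 and 269.8 CPM in WT. Genotypes overlapped in each background. Of the single backgrounds Jund passed in AJ-F1, at -0.80 ± 0.26 on the log2 scale (adjusted p = 0.024), beside -0.35 ± 0.24 for BL6J (adjusted p = 0.33) and -0.65 ± 0.27 for CAST-F1 (adjusted p = 0.10). The AJ-F1 call was lost without KO 1, KO 2, WT 3 or WT 4, where the change ranged from -0.81 to -0.66, and the CAST-F1 change was -0.86 without WT 1 (adjusted p = 0.045) and -0.33 without WT 3 (adjusted p = 0.50). Leaving out WT 2 of AJ-F1 also brought the CAST-F1 change past the threshold (adjusted p = 0.040).

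**Figure D2:**
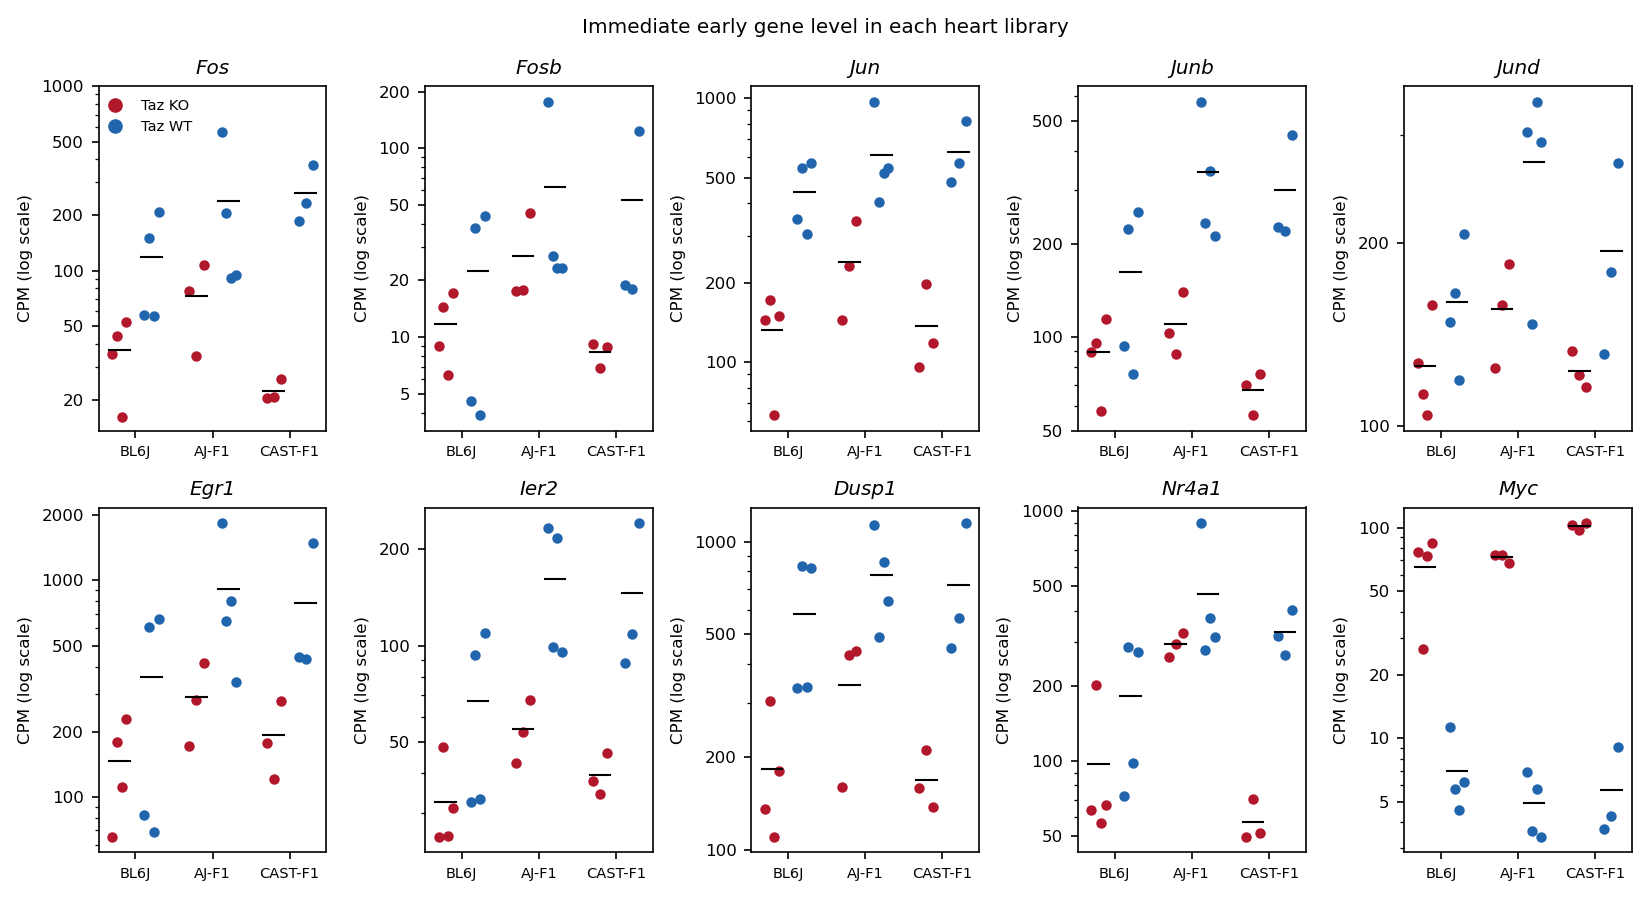
Level of each immediate early gene (CPM, log scale) in each of the 21 ventricle libraries, KO in red to the left of WT in blue within each background; black lines are group means. Myc lies at 26.5 to 105 CPM in KO libraries and at 3.41 to 11.4 CPM in WT libraries, and the other genes are mostly lower in KO.

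Egr1 (ENSMUSG00000038418.7, chr18:34859823-34864984, plus strand), a zinc-finger transcription factor induced through serum response factor, varied widely between WT libraries. In BL6J it had 65.3, 178, 111 and 229 CPM in KO libraries and 82.5, 612, 68.7 and 664 CPM in WT libraries. In AJ-F1 it had 172, 279 and 415 CPM in KO and 1841, 647, 807 and 339 CPM in WT. In CAST-F1 it had 176, 121 and 278 CPM in KO and 443, 433 and 1495 CPM in WT. The genotypes overlapped in BL6J and AJ-F1 and were separate in CAST-F1. The log2 changes of -1.29 ± 0.72, -1.65 ± 0.80 and -2.04 ± 0.85 did not pass in BL6J (adjusted p = 0.23), AJ-F1 (0.13) or CAST-F1 (0.10). DESeq2 called Egr1 in CAST-F1 (adjusted p = 0.043), as did limma-voom with sample weights (adjusted p = 0.035), and without WT 3 of CAST-F1 edgeR gave -1.19 (adjusted p = 0.41). Without WT 1 of AJ-F1 the AJ-F1 change was -1.05 (adjusted p = 0.32). Over the average of the backgrounds Egr1 fell by 1.66 ± 0.46 on the log2 scale (adjusted p = 0.0065). With both of these WT libraries left out that change was -1.18 (adjusted p = 0.031).

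Nr4a1 encodes an orphan nuclear receptor that is induced by calcium and cyclic AMP signals. Its BL6J levels were 63.6, 202, 56.5 and 66.6 CPM in KO and 72.6, 286, 98.6 and 273 CPM in WT. Its AJ-F1 levels were 262, 294 and 326 CPM in KO and 896, 279.7, 374 and 315 CPM in WT. Its CAST-F1 levels were 49.8, 70.3 and 51.7 CPM in KO and 317, 267 and 402 CPM in WT. In CAST-F1 every KO library lay far below every WT library, whereas the genotypes overlapped in BL6J, through KO 2, and in AJ-F1. The log2 change was -2.52 ± 0.55 in CAST-F1 (adjusted p = 0.0024), and -0.91 ± 0.45 in BL6J (adjusted p = 0.16) and -0.66 ± 0.48 in AJ-F1 (adjusted p = 0.32) did not pass. Without KO 2 the BL6J change was -1.56 (adjusted p = 0.0094), and without WT 1 the AJ-F1 change was -0.14 (adjusted p = 0.84).

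Ier2, a small nuclear protein of the immediate early response, fell in the F1 backgrounds. In BL6J it stood at 25.4, 48.4, 25.6 and 31.2 CPM in KO and 32.6, 93.6, 33.2 and 109.75 CPM in WT. In AJ-F1 it stood at 43.1, 53.85 and 67.9 CPM in KO and 232.5, 99.3, 217 and 95.5 CPM in WT. In CAST-F1 it stood at 37.9, 34.6 and 46.1 CPM in KO and 88.2, 109 and 241 CPM in WT. There was no overlap in either F1 background, while KO 2 of BL6J lay above 2 of the BL6J WT libraries. The log2 changes were -1.55 ± 0.43 for AJ-F1 (adjusted p = 0.011), -1.89 ± 0.47 for CAST-F1 (adjusted p = 0.0056) and -1.05 ± 0.40 for BL6J (adjusted p = 0.066). The AJ-F1 call was lost without KO 1 (-1.42, adjusted p = 0.052) or WT 3 (-1.37, adjusted p = 0.062), and the CAST-F1 call without WT 3 (-1.32, adjusted p = 0.056). The BL6J change passed without any 1 of KO 2, WT 1 and WT 3, and also without WT 3 of CAST-F1 (adjusted p = 0.046). The BL6J change was -1.30 without KO 2 (adjusted p = 0.034). Without WT 4 it was -0.71 (adjusted p = 0.26).

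Dusp1 encodes a nuclear dual-specificity phosphatase that is induced with the other immediate early genes and dephosphorylates p38, JNK and ERK kinases. Its levels in BL6J were 136, 304, 110.25 and 179.7 CPM in KO and 334, 830.3, 337 and 822 CPM in WT. In AJ-F1 they were 159.6, 428 and 442 CPM in KO and 1131, 491, 861 and 642 CPM in WT. In CAST-F1 they were 158, 210.3 and 138 CPM in KO and 452, 566 and 1147 CPM in WT. The genotypes did not overlap in any background. Dusp1 fell by 1.67 ± 0.40 in BL6J (adjusted p = 0.0044), by 1.19 ± 0.44 for AJ-F1 (adjusted p = 0.047) and by 2.10 ± 0.47 for CAST-F1 (adjusted p = 0.0030) on the log2 scale. The AJ-F1 call was lost without any 1 of KO 1, KO 2, KO 3, WT 1, WT 3 and WT 4 of that background. Libraries of the other backgrounds included, it was lost in 11 of the 21 fits that left out 1 library. Without KO 1 the change was -0.87 (adjusted p = 0.18) and without WT 1 it was -0.95 (adjusted p = 0.12). Without WT 3 of CAST-F1 the CAST-F1 change was -1.59 (adjusted p = 0.023).

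Myc, a helix-loop-helix transcription factor that promotes growth and ribosome production, moved the other way. KO libraries had 76.7, 26.5, 73.3 and 84.8 CPM in BL6J, against 11.4, 5.73, 4.55 and 6.22 CPM in WT. The AJ-F1 values were 74.5, 74.4 and 68.2 CPM in KO and 6.93, 3.61, 5.74 and 3.41 CPM in WT. The CAST-F1 values were 102.88, 97.3 and 105 CPM in KO and 3.70, 4.29 and 9.13 CPM in WT. Each KO library lay above each WT library, the nearest being KO 2 of BL6J, and the raw counts behind these values ran from 20 to 507 reads. The log2 changes were 3.20 ± 0.34 (adjusted p = 2.9e-07), 3.89 ± 0.35 (adjusted p = 4.2e-08) and 4.15 ± 0.40 (adjusted p = 1.1e-07) in BL6J, AJ-F1 and CAST-F1. Myc passed in all 29 alternative settings of each background.

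Counting only separation between libraries, 3 of the 10 genes in BL6J, 4 in AJ-F1 and 8 in CAST-F1 had every KO library below every WT library. Among all tested genes the shares were 12.9%, 14.9% and 22.6%. Myc was the 1 member with every KO library above every WT library in each background, where the shares of all genes were 15.5%, 14.1% and 24%.

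The summed level of the 9 genes other than Myc shows how far the libraries spread. In BL6J the sum was 695, 1172, 551 and 998 CPM in KO and 1174, 2943, 1099 and 3149 CPM in WT. In AJ-F1 it was 1104, 1586 and 2070 CPM in KO and 6689, 2534, 3576 and 2556 CPM in WT. In CAST-F1 it was 751, 838 and 859 CPM in KO and 2344, 2591 and 5326 CPM in WT. In BL6J the sum in WT 1 and WT 3 lay level with or below that in KO 2, the highest KO library, and WT 2 and WT 4 were far above. The sum did not overlap between genotypes in AJ-F1 or CAST-F1. Median coefficients of variation over the 9 genes were 42.1% in KO and 59.8% in WT for BL6J, 41.2% in KO and 48.8% in WT for AJ-F1, and 15.4% in KO and 43.9% in WT for CAST-F1.

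**Figure D3:**
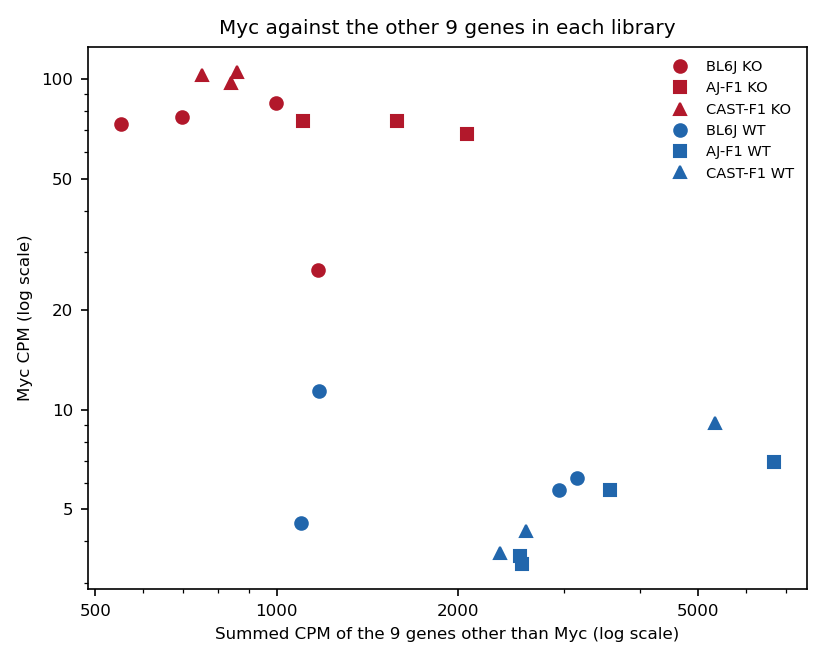
Myc (CPM, log scale) against the summed level of the other 9 immediate early genes (CPM, log scale) in each of the 21 libraries, by genotype (colour) and background (shape). KO libraries hold 551 to 2070 CPM of the 9 genes and WT libraries 1099 to 6689 CPM, and Myc separates the genotypes in full.

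The 9 genes tended to rise and fall together from library to library within a group, more so in WT than in KO libraries. WT 2 and WT 4 of BL6J, KO 3 and WT 1 of AJ-F1 and WT 3 of CAST-F1 lay above their group mean for 9 of 9 genes. KO 3, WT 1 and WT 3 of BL6J and WT 1 and WT 2 of CAST-F1 did so for 0 of 9. The other libraries were mixed, such as KO 1, KO 2 and KO 3 of CAST-F1 with 3, 3 and 5 of 9. After subtraction of each group's mean log2 CPM, the median Pearson r over the 36 pairs of these genes was 0.73 across 21 libraries, with a range of 0.32 to 0.95 (median Spearman rho 0.73). The pairs share their libraries and scaling factors, so the r is a description. The median r was 0.55 over the 10 KO libraries (range -0.086 to 0.91) and 0.88 over the 11 WT libraries (range 0.28 to 0.98). It was 0.66 with WT 1 of AJ-F1 and WT 3 of CAST-F1 left out. For Myc the r with the 9 genes had a median of 0.12 and ran from -0.27 to 0.47. The median was -0.25 over the KO libraries (range -0.95 to 0.28) and 0.43 over the WT libraries (range 0.15 to 0.58).

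**Figure D4:**
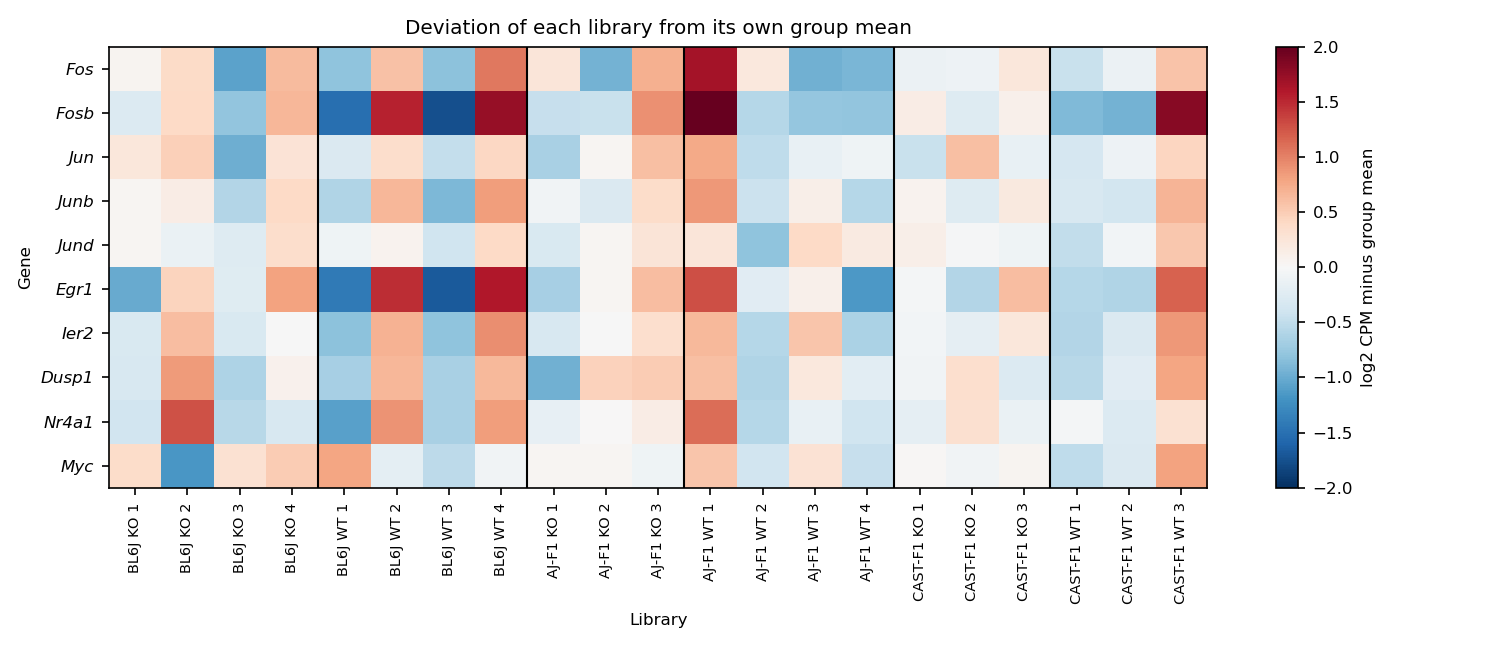
Deviation of each library from its own group mean (log2 CPM; the colour scale ends at -2 and 2) for the 10 genes. WT 2 and WT 4 of BL6J have all 9 genes other than Myc above the mean and WT 1 and WT 3 of BL6J have none, with all 9 also above the mean in WT 1 of AJ-F1 and WT 3 of CAST-F1.

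The genes most like the members in this library-to-library pattern were ranked among 10084 tested genes of at least 5 CPM, by Pearson r with the mean z-score of the 10 members over the 21 libraries, after subtraction of each group's mean log2 CPM. Zfp36, which encodes an mRNA-decay protein, ranked first (r = 0.94), followed by Abi3bp (0.86), and Nfkbiz (0.83) and Slc25a25 (0.80) were also among the 10 highest. Marcksl1 (0.78), Csrnp1 (0.77), Btg2 (0.76), Pigu (0.76) and Apold1 (0.75) were so too. Of these, Btg2 fell in KO in all 3 backgrounds, Slc25a25 fell in AJ-F1 and CAST-F1, and Zfp36 fell in CAST-F1. Pigu had a change of 0.19 ± 0.085 on the log2 scale over the average of the backgrounds (adjusted p = 0.077).

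Leaving out WT 1 of AJ-F1 and WT 3 of CAST-F1 together, an alternative chosen after their values were seen, gave 5 called members in BL6J, 5 in AJ-F1 and 6 in CAST-F1, in place of 4, 7 and 7. Calls over all tested genes moved too, from 2498 to 1983 in CAST-F1 and from 5912 to 5433 over the average. Those for BL6J and AJ-F1 in this setting are not given here. Over the average of the backgrounds 9 of 10 were called, with Fosb lost at -0.65 (adjusted p = 0.17). Jun, Junb, Jund and Ier2 in AJ-F1 and Fos, Jun, Junb, Dusp1 and Nr4a1 in CAST-F1 still fell, and Myc still rose in all 3. A single AJ-F1 library also mattered for the count there: 2 members were called without KO 1, 4 without KO 2 and 4 without WT 3. Over all tested genes, leaving out 1 library gave 2114 to 4580 calls in AJ-F1. A change in member counts therefore cannot be told from a general change in calls.

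Per kilobase of annotated exon, Dusp1 had the highest level of the 10 genes in WT hearts of all 3 backgrounds, with 175 ± 85.6, 236 ± 84.1 and 218 ± 113 CPM per kb in BL6J, AJ-F1 and CAST-F1 (SD, n = 4, 4 and 3). Its range overlapped that of the next gene in each background. Jun, Jund, Egr1 and Junb took ranks 2 to 5 in WT hearts in varying order, and their ranges overlapped. Myc was the lowest in WT hearts, with Fosb next. In KO hearts Jund ranked first in BL6J (75.4 ± 14.2 CPM per kb, n = 4) and CAST-F1 (73.9 ± 5.20, n = 3), and Dusp1 in AJ-F1 (103.7 ± 48.1, n = 3). The first and second genes overlapped in BL6J and AJ-F1 KO hearts and were separate in CAST-F1 KO hearts. Myc stood at 24.1 ± 9.69, 26.6 ± 1.34 and 37.5 ± 1.49 CPM per kb in KO hearts of BL6J, AJ-F1 and CAST-F1, against 2.57 ± 1.11, 1.81 ± 0.63 and 2.10 ± 1.10 in WT hearts. By these means it ranked 7, 9 and 5 of the 10 in KO and 10 of 10 in WT hearts.

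Whether the KO effect itself differed between backgrounds was tested with an interaction term. None of the 10 genes passed in AJ-F1 minus BL6J, CAST-F1 minus BL6J or CAST-F1 minus AJ-F1, where 0.00811%, 0.0324% and 0.0892% of all tested genes did (edgeR). At an unadjusted p under 0.05 there were 0, 3 and 2 members, and neither DESeq2 nor limma-voom called any. The largest estimates belonged to Fos. They were -1.90 ± 0.87 for CAST-F1 minus BL6J (approximate 95% interval -3.61 to -0.19) and -1.87 ± 0.89 for CAST-F1 minus AJ-F1 (interval -3.61 to -0.13). Nr4a1 had -1.60 ± 0.69 (interval -2.96 to -0.25) and -1.85 ± 0.71 (interval -3.24 to -0.46) in the same contrasts, and Junb had -1.29 ± 0.55 for CAST-F1 minus BL6J. Myc had 0.95 ± 0.50 for CAST-F1 minus BL6J (interval -0.034 to 1.94). These contrasts share libraries, and the intervals are normal approximations that can be narrower than the F test implies.

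Between WT hearts of different backgrounds no member passed in edgeR, where 3.26%, 5.73% and 5.26% of all genes did for AJ-F1 against BL6J, CAST-F1 against BL6J and CAST-F1 against AJ-F1. The unadjusted p was under 0.05 for 4, 2 and 0 of the 10. In AJ-F1 against BL6J the log2 differences of Ier2 (1.26 ± 0.39, adjusted p = 0.076), Jund (0.76 ± 0.24, adjusted p = 0.075), Junb (1.08 ± 0.36, adjusted p = 0.095) and Nr4a1 (1.35 ± 0.45, adjusted p = 0.099) came nearest. DESeq2 called Jund and Ier2 there among 707 genes, and limma-voom called Junb, Ier2 and Nr4a1 among 234 genes. In CAST-F1 against BL6J limma-voom called 4 (Fos, Junb, Ier2 and Nr4a1) and DESeq2 called 0. Over all tested genes limma-voom called 2272 there, beside 707 for edgeR. In CAST-F1 against AJ-F1 neither DESeq2 nor limma-voom called any member. Myc in WT hearts differed by -0.55 ± 0.36 between AJ-F1 and BL6J (adjusted p = 0.37).

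Between KO hearts 1 member passed. Nr4a1 was lower in CAST-F1 KO than in AJ-F1 KO hearts, at -2.36 ± 0.55 on the log2 scale (adjusted p = 0.012), in a contrast where 6.76% of all genes passed, and all its CAST-F1 KO libraries (49.8 to 70.3 CPM) lay below all its AJ-F1 KO libraries (262 to 326 CPM). The call was lost without KO 1 of CAST-F1 (-2.27, adjusted p = 0.060) or without KO 3 (-2.29, adjusted p = 0.054). No member passed in AJ-F1 against BL6J (2.21% of all genes) or CAST-F1 against BL6J (5.12%), where 3 and 0 had an unadjusted p under 0.05. DESeq2 called 0 in both, and limma-voom called Nr4a1 in AJ-F1 against BL6J and Myc in CAST-F1 against BL6J. Over all tested genes limma-voom called 661 and 1897 in these 2 contrasts, beside 273 and 631 for edgeR.

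A wider list of 48 other immediate early genes held 44 that were tested. In BL6J 3 of them rose and 2 fell, in AJ-F1 2 rose and 18 fell, and in CAST-F1 3 rose and 7 fell, with median log2 changes of -0.33, -0.82 and -0.64. The shares that fell were 4.55%, 40.9% and 15.9%, beside 9.51%, 15.7% and 9.59% of all tested genes, and the shares that rose were 6.82%, 4.55% and 6.82%, beside 12.8%, 12.9% and 10.7%. Over the average of the backgrounds 3 rose and 23 fell, or 6.82% and 52.3%, beside 23.7% and 24.2% of all tested genes. Btg2, an antiproliferative gene whose product speeds mRNA decay, fell in BL6J (-1.31 ± 0.33, adjusted p = 0.0062), AJ-F1 (-1.89 ± 0.37, adjusted p = 0.00076) and CAST-F1 (-1.93 ± 0.39, adjusted p = 0.0011). In AJ-F1 the interferon regulatory factor Irf1 (-1.28 ± 0.28) and the Notch target Hes1 (-1.17 ± 0.29) also fell. In CAST-F1 Arc, known from neuronal activity, fell to 4.11 to 5.32 CPM in KO, against 13.5 to 21.2 CPM in WT, and Gadd45g changed by -2.17 ± 0.52 (adjusted p = 0.0043).

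The exceptions in that list rose. Gadd45a, a growth-arrest and DNA-damage response gene, stood at 32.7 to 77.3 CPM in KO and 8.40 to 10.8 CPM in WT hearts of BL6J and rose by 2.40 ± 0.29 on the log2 scale there (adjusted p = 2.5e-06), by 1.52 ± 0.29 in AJ-F1 and by 1.22 ± 0.34 in CAST-F1. Ctgf, a secreted matrix-associated protein gene, rose in BL6J (2.01 ± 0.39) and CAST-F1 (2.62 ± 0.46) and had 0.29 ± 0.40 in AJ-F1 (adjusted p = 0.62). Ppp1r15a, which encodes the GADD34 subunit of an eIF2 alpha phosphatase, rose in BL6J (0.85 ± 0.22), AJ-F1 (0.68 ± 0.24) and CAST-F1 (0.74 ± 0.26).

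**Figure D5:**
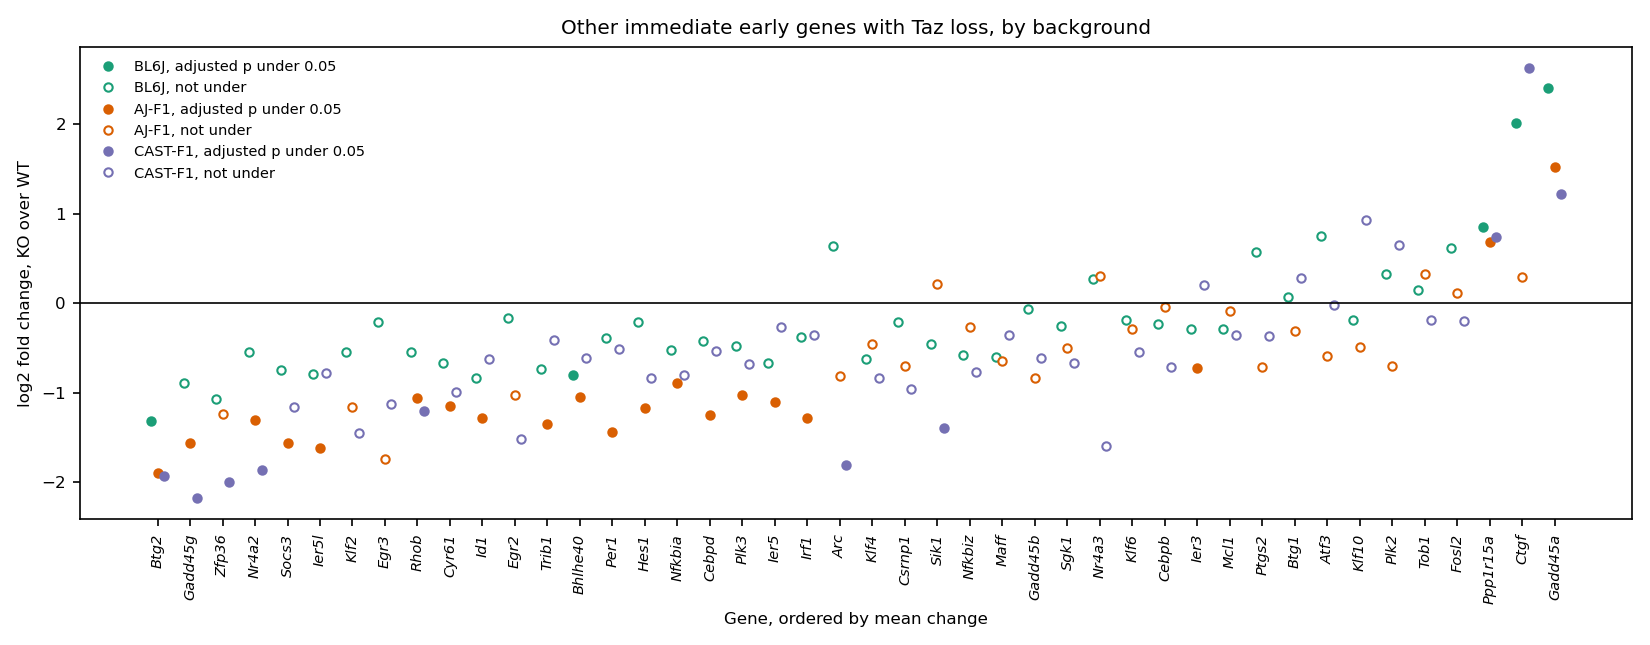
Log2 fold change (KO over WT) of 44 other immediate early genes in BL6J, AJ-F1 and CAST-F1, ordered by the mean of the 3; filled points have an adjusted p under 0.05 in edgeR. Gadd45a, Ctgf and Ppp1r15a lie at the upper end and Btg2 at the lower end.

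The kinases and factors that switch immediate early genes on were measured as well. Of 27 tested, 3 fell and 0 rose in BL6J, 4 fell and 2 rose in AJ-F1, and 3 fell and 0 rose in CAST-F1. The shares that fell, 11.1%, 14.8% and 11.1%, were near those of all tested genes, 9.51%, 15.7% and 9.59%, and nothing is read from the list's counts. Mapk14, the p38 alpha kinase, had 25.0 to 45.6 CPM in KO and 53.6 to 81.9 CPM in WT hearts of BL6J, and its log2 change was -0.97 ± 0.15 there (adjusted p = 5.9e-05), -1.12 ± 0.17 in AJ-F1 and -0.95 ± 0.18 in CAST-F1. Rps6ka2, a ribosomal S6 kinase downstream of ERK, fell by 0.75 ± 0.18, 0.82 ± 0.20 and 1.03 ± 0.21. Myocd, the myocardin coactivator of serum response factor, fell in BL6J (-0.59 ± 0.17) and CAST-F1 (-0.87 ± 0.20). In AJ-F1 Rps6ka1 fell (-1.17 ± 0.39) and Atf1 rose (0.75 ± 0.25).

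Among 14 tested MAP kinase feedback inhibitors 1 rose and 1 fell in BL6J, 0 rose and 5 fell in AJ-F1, and 1 rose and 3 fell in CAST-F1. The shares that fell were 7.14%, 35.7% and 21.4%, beside 9.51%, 15.7% and 9.59% of all tested genes. Dusp7, an ERK phosphatase, fell by 0.98 ± 0.24, 1.41 ± 0.27 and 1.14 ± 0.29 on the log2 scale in BL6J, AJ-F1 and CAST-F1. Dusp4 rose in BL6J (1.82 ± 0.48) and CAST-F1 (2.41 ± 0.50), with low levels of 2.12 to 6.62 CPM in KO and 0.20 to 1.998 CPM in WT hearts of BL6J. Spry2 fell in AJ-F1 (-0.78 ± 0.22) and CAST-F1 (-0.71 ± 0.24), and Spry1 (-1.20 ± 0.33) and Dusp10 (-1.43 ± 0.40) fell in AJ-F1. Dusp5 fell in CAST-F1 (-1.19 ± 0.40).

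Of 11 regulators of mRNA decay 0 rose in any background and 1, 2 and 2 fell in BL6J, AJ-F1 and CAST-F1, which is 9.09%, 18.2% and 18.2% beside 9.51%, 15.7% and 9.59% of all tested genes. They were Btg2 in all 3, Zfp36l2 in AJ-F1 (-0.55 ± 0.20) and Zfp36 in CAST-F1 (-1.996 ± 0.51); Btg2 and Zfp36 also stand in the list of other immediate early genes. Of 9 tested Myc partners and antagonists none passed in BL6J or CAST-F1, and Mxd4 (-0.71 ± 0.24) and Mycn (-1.28 ± 0.46) fell in AJ-F1. That share was 22.2%, beside 15.7% of all tested genes.

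Heat-inducible chaperones and clock genes also moved in some backgrounds, and their part in the results for the immediate early genes was not tested. Of 10 chaperone genes 2 rose and 0 fell in BL6J, 4 rose and 0 fell in AJ-F1, and 1 rose and 4 fell in CAST-F1. The shares that rose were 20%, 40% and 10%, beside 12.8%, 12.9% and 10.7% of all tested genes. The shares that fell were 0%, 0% and 40%, beside 9.51%, 15.7% and 9.59%. In CAST-F1 Hspa1a had 5.78 to 8.37 CPM in KO and 76.25 to 503 CPM in WT hearts (log2 change -4.99 ± 0.96, adjusted p = 0.0012), and Hspa1b (-5.14 ± 1.20) and Dnajb1 (-1.79 ± 0.38) fell with it. Hspe1 rose in all 3 backgrounds, by 0.70 ± 0.16, 0.75 ± 0.17 and 0.97 ± 0.19. Of 15 clock genes 0 rose and 2, 8 and 2 fell in BL6J, AJ-F1 and CAST-F1. The shares that fell were 13.3%, 53.3% and 13.3%, beside 9.51%, 15.7% and 9.59% of all tested genes, and near them in BL6J and CAST-F1. Dbp, a clock output gene, had 12.2 to 29.4 CPM in KO and 38.5 to 525 CPM in WT hearts of AJ-F1 (-3.78 ± 0.77, adjusted p = 0.0015), and Hlf fell in all 3 (-1.53 ± 0.25, -2.36 ± 0.29 and -1.62 ± 0.30).

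Markers of other cells of the ventricle moved with genotype as well, and their part in the immediate early gene results was not tested. Of 12 endothelium markers 2 fell in BL6J, 10 in AJ-F1 and 0 in CAST-F1, and none rose. The shares that fell were 16.7%, 83.3% and 0%, beside 9.51%, 15.7% and 9.59% of all tested genes. All 12 fell over the average of the backgrounds, beside 24.2% of all tested genes, and their median log2 change in CAST-F1 was -0.52. None of the 12 markers passed in a test of a difference in KO effect. Their summed level was 1014 to 2158 CPM in KO and 1789 to 2525 CPM in WT for BL6J, 974 to 1676 CPM in KO and 1858 to 3830 CPM in WT for AJ-F1, and 1820 to 2185 CPM in KO and 2226 to 3479 CPM in WT for CAST-F1. Of 9 fibroblast markers 2, 9 and 0 fell, or 22.2%, 100% and 0%, beside the same shares of all tested genes. Their sums were 807 to 1002 CPM in KO and 1007 to 1392 CPM in WT for BL6J. For AJ-F1 they were 739 to 812 CPM in KO and 1320 to 2449 CPM in WT. For CAST-F1 they were 848 to 1066 CPM in KO and 845 to 1771 CPM in WT. No endothelium or fibroblast marker was at 0 in any library.

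Cardiomyocyte markers fell for 5 of 10 in BL6J, 3 in AJ-F1 and 5 in CAST-F1, with 1 rising in CAST-F1. The shares that fell were 50%, 30% and 50%, beside 9.51%, 15.7% and 9.59% of all tested genes. The summed cardiomyocyte level was 69865 to 77424 CPM in KO and 91575 to 105730 CPM in WT for BL6J. For AJ-F1 it was 69534 to 77407 CPM in KO and 87355 to 97667 CPM in WT. For CAST-F1 it was 70773 to 80768 CPM in KO and 78273 to 105810 CPM in WT. WT 3 of CAST-F1 held the 78273 CPM, and also the highest endothelium and fibroblast sums of the CAST-F1 WT libraries. Atrium markers rose for 2, 0 and 1 of 5 in BL6J, AJ-F1 and CAST-F1, with Bmp10 at 0 in 9 libraries and Sln in 1. As shares of the atrium markers that is 40%, 0% and 20%, where 12.8%, 12.9% and 10.7% of all tested genes rose. The atrium sum was 1240 to 2001 CPM in KO and 133 to 528 CPM in WT for BL6J. For AJ-F1 it was 144 to 520 CPM in KO and 87.6 to 511 CPM in WT. For CAST-F1 it was 1887 to 2001 CPM in KO and 41.2 to 76.5 CPM in WT. The most reads in a library were 9745 for Nppa, 1189 for Myl4, 374 for Myl7, 271 for Sln and 106 for Bmp10. The atrium sum can therefore rest largely on Nppa. Mesothelium markers rose for 1, 5 and 5 of 8, with 1 falling in BL6J and none at 0. These markers rose at shares of 12.5%, 62.5% and 62.5%, beside the same shares of all tested genes. Their sum was 62.3 to 88.9 CPM in KO and 37.8 to 64.8 CPM in WT for BL6J, 64.8 to 81.2 CPM in KO and 19.99 to 55.9 CPM in WT for AJ-F1, and 47.6 to 80.1 CPM in KO and 14.8 to 34.4 CPM in WT for CAST-F1. The part of these lists was not tested either.

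Smooth muscle and pericyte markers fell for 1, 5 and 4 of 8 in BL6J, AJ-F1 and CAST-F1, with 1 rising in each and Cnn1 at 0 in 3 libraries. These markers fell at shares of 12.5%, 62.5% and 50%, beside 9.51%, 15.7% and 9.59% of all tested genes. They rose at 12.5% in each, beside 12.8%, 12.9% and 10.7%. Their sum was 1756 to 3432 CPM in KO and 1530.0 to 1791 CPM in WT for BL6J, 1673 to 1728 CPM in KO and 1365 to 1895 CPM in WT for AJ-F1, and 1585 to 1787 CPM in KO and 1229 to 1778 CPM in WT for CAST-F1. Nerve and glia markers fell for 1, 2 and 1 of 3, or 33.3%, 66.7% and 33.3%, beside the same shares of all tested genes. Their sums were 3.88 to 11.2 CPM in KO and 12.2 to 30.0 CPM in WT over the 3 backgrounds. Dbh was at 0 in 3 libraries and S100b in 2. None of the 10 macrophage and leukocyte markers or the 5 erythrocyte markers passed in BL6J, AJ-F1 or CAST-F1 (edgeR). Of 4 neutrophil markers 1 was tested and did not pass, and S100a9 was at 0 in 13 libraries and Retnlg in 12. What these lists have to do with the immediate early genes was likewise not tested.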

How the data were processed

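Poly(A) RNA from mouse ventricles was sequenced in 21 libraries. Per the submitters' processing notes, HISAT, featureCounts and DESeq2 were used with GRCm38.p6; their versions and the use of strand are not given in the sources used here. The authors deposited raw read counts per gene, unnormalized, as whole numbers, with 3848172 to 10738130 counts per library; intervals and p-values depend on this depth.

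Genes passing filterByExpr (12333 of 14732, holding 99.9% of counts) were fitted with edgeR 4.0.16 (R 4.3.3; TMM, prior count 2 for log2 CPM, robust quasi-likelihood, 1 mean per group, all 6 groups sharing the spread; common biological coefficient of variation 20.3%). P-values were adjusted by Benjamini-Hochberg over all genes tested, threshold 0.05. The procedure was tested on simulated data. No per-sample column was left unmapped, so all 21 were used. Replicates correlated at r 0.895 to 0.983 over 27 pairs and none were identical. Alternatives were 2 other scalings, no filter, DESeq2 1.42.0, limma-voom (limma 3.58.1), fits of each background alone, a replicate block and leaving out each library.

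The members and lists were chosen with earlier results of these data known. All 10 members are named. For other lists up to 4 genes with the smallest adjusted p in each background's KO against WT contrast are named, beside Taz and, of the 10 genes most like the members, 9; the other is not reported here. Promoter sequences are from RefSeq.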

Additional observations from a re-analysis of the deposited data

Results flagged for a closer look

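A sample far from the others was sought by Dixon's ratio at its 95% critical value in 30 sets of 4 libraries, and 3 exceeded it; chance flags about 1 in 20. Fosb was 177 CPM in WT 1 of AJ-F1, with the other WT libraries at 23.2 to 26.8 CPM (ratio 0.976). Nr4a1 was 896 CPM in the same library, with the others at 279.7 to 374 CPM (ratio 0.846). Nr4a1 was 202 CPM in KO 2 of BL6J, with the other KO libraries at 56.5 to 66.6 CPM (ratio 0.93). KO 2 also had the lowest Myc level of the 10 KO libraries, 26.5 CPM, which did not exceed Dixon's value.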

How the results depend on the processing

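No called member reversed its direction in KO against WT. Over 29 alternative settings the call of Fos changed in 17 for AJ-F1 and 9 for BL6J, and that of Dusp1 in 14 for AJ-F1. Calls in AJ-F1 fell to 4 members with each background fitted alone, where calls over all tested genes fell from 3521 to 1323. Between WT hearts DESeq2 called 2 members (707 of all genes) and limma-voom 3 (234) in AJ-F1 against BL6J. In CAST-F1 against BL6J limma-voom called 4 (2272). Between KO hearts limma-voom called 1 in AJ-F1 against BL6J (661) and 1 in CAST-F1 against BL6J (1897). The cause was not tested.

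Leaving out each library gave 3 to 6 called members in BL6J, 2 to 7 in AJ-F1, 6 to 8 in CAST-F1 and 9 to 10 over the average. For AJ-F1 against BL6J the range was 0 to 4 in WT (4 without WT 2 of AJ-F1, where 16.7% of all genes were called, and 1 without KO 2 of BL6J, 3.82%) and 0 to 1 in KO (1 without KO 2 of BL6J, 3.06%). For CAST-F1 against AJ-F1 it was 0 to 1 in WT (1 without WT 2 of AJ-F1, 13.7%) and 0 to 1 in KO.

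Over all genes, KO against WT called 2756 in BL6J (limma-voom 4303), 3521 in AJ-F1 (alone 1323) and 2498 in CAST-F1 (limma-voom 4969, alone 4157). Leaving out each library gave 2159 to 3508, 2114 to 4580 (lowest without KO 3 of AJ-F1) and 1791 to 3273. Over the alternatives other than single left-out libraries the tests of a difference in KO effect called 1 to 72 genes for AJ-F1 minus BL6J (1 as reported), 0 to 74 for CAST-F1 minus BL6J (4) and 0 to 140 for CAST-F1 minus AJ-F1 (11). Between WT hearts 234 to 707 genes were called for AJ-F1 against BL6J (402 as reported), 423 to 2272 for CAST-F1 against BL6J (707) and 429 to 901 for CAST-F1 against AJ-F1 (649). Between KO hearts the same contrasts called 206 to 661 (273), 445 to 1897 (631) and 738 to 2363 (834). Leaving out each library gave 0 to 58, 0 to 6 and 0 to 14 genes for the 3 differences, 118 to 2065, 301 to 1122 and 278 to 1691 for WT (2065 and 1691 without WT 2 of AJ-F1), and 119 to 465, 302 to 1097 and 351 to 1421 for KO.

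Same-numbered KO and WT libraries did not deviate together (10 pairs, r -0.23 to 0.081, and 2 of 10 correlated best with their own number). That cannot show whether same-numbered libraries came from littermates or were processed together, because such pairs need not deviate together. With a replicate block 3, 5, 7 and 10 members were called in BL6J, AJ-F1, CAST-F1 and over the average. Over all tested genes the block gave 2590 calls in BL6J, beside 2756 without it. Those for AJ-F1, CAST-F1 and the average are not given here. These member counts therefore cannot be told from a general change in calls. Of the 10 members Fosb had the lowest count in a library, 17 reads, and Myc the next lowest, 20 reads.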
